A study of Mus musculus with 12 samples.

Results

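Neural progenitor cells (NPC) were compared with the embryonic stem cells (ESC) they were made from, by the contacts that chromosome conformation capture carbon copy (5C) recorded around the mouse Sonic hedgehog gene, Shh. The comparison took the 6 of the 12 samples in the series that were titled as normalised ESC or NPC matrices. The matrix of NPC biological replicate 1, technical 1, equalled that of biological replicate 2, technical 2, to within 4.02e-08 reads per 1000, and the library was counted once, in replicate 1. This left 5 distinct libraries, which made 2 biological replicates of each cell type. ESC replicates 1 and 2 were 1 library each, NPC replicate 1 was the mean of 2 libraries and NPC replicate 2 was 1 library.

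Both cell types came from the mouse ESC line 46c, which carries a green fluorescent protein reporter at Sox1, a gene of early neural cells. The ESC were grown in supplemented GMEM medium, and the NPC were the same line after 7 days in N2B27, a serum-free medium that leads ESC to neural fates. Both were fixed with formaldehyde. 5C reads no RNA, so the labelled cell types could not be checked against their marker genes, and the labels do not give the share of cells that had become progenitors. The other groups of the series were ESC that received activators built from a DNA-binding protein and Vp64, aimed at the enhancers SBE6 or SBE2 or at both. They entered the model only to help estimate the spread between replicates.

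Shh encodes a secreted signal that sets up pattern in the neural tube and the limb bud. Its enhancers are spread through the gene-poor stretch between Shh and Lmbr1: SBE6, SBE4 and SBE2 act in the brain and neural tube, and the ZRS, which lies in an intron of Lmbr1, acts in the limb. Shh and these enhancers share a topologically associating domain, a block of chromosome whose parts touch each other more than they touch the neighbouring blocks. 5C measures such touching by joining DNA ends that lay close together in fixed nuclei and counting the joined pairs with designed primers.

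The files covered chr5:28317087-30005000 (mm9) in 341 HindIII restriction fragments of a median 2.42 kb. Of 57970 possible fragment pairs, 28980 were above 0 in any library of the series. The fragments fell into classes of 176 and 165, and 0 pairs within a class were above 0. In 5C a junction is read only between a forward and a reverse primer. Signal was expressed per library as reads per 1000 reads over these fragments. The depth implied by the smallest step between values was 22.0 M (mega) reads in ESC replicate 1, 20.7 M in ESC replicate 2, 43.2 and 0.978 M in the libraries of NPC replicate 1 and 1.87 M in NPC replicate 2. When each library was thinned in calculation to the common depth of 0.978 M reads, the share of pairs above 0 was 73.9% in ESC replicate 1, 38.7% in ESC replicate 2, 53.8% and 57.3% in the libraries of NPC replicate 1 and 54.9% in NPC replicate 2. ESC replicate 2 was therefore the sparsest library at equal depth. Over pairs more than 50 kb apart, leaving out the few dominant pairs described next, the Spearman correlation was 0.922 between the libraries of NPC replicate 1, 0.295 between the ESC replicates, 0.335 and 0.348 between the NPC replicates, and 0.233 to 0.345 between ESC and NPC libraries. Over all pairs, the Pearson correlation was 0.551 between the ESC replicates. It was 0.759 to 0.780 between ESC replicate 2 and the NPC libraries, and 0.0677 to 0.0987 between ESC replicate 1 and those libraries. Without the dominant pairs it was 0.895 between the ESC replicates and 0.386 to 0.539 between ESC and NPC libraries. These correlations describe pairs that share fragments and primers, so they carry no test.

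A few long-range fragment pairs took up a large part of the NPC libraries. Pairs more than 50 kb apart that held over 0.5% of any library of the series are called high pairs here, and there were 21 of them, 17 of which passed that limit in an ESC or NPC library. Together they held 0.222% of the signal of ESC replicate 1 and 12.8% of ESC replicate 2, against 45.5% of NPC replicate 1 and 40.5% of NPC replicate 2. The libraries of NPC replicate 1 gave 49.7% at 43.2 M reads and 41.3% at 0.978 M, so the share was also high in the shallow library. ESC replicate 2 stood between its own group and the NPC. At the limit, the nearest pairs inside it reached 0.594%, 0.620% and 0.630% of their highest library, and the nearest outside reached 0.407%, 0.407% and 0.392%.

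The strongest of these pairs tied fragment Shh_140 (chr5:28763979-28767078), about 24 kb from the Shh reference point on the side away from the enhancers, to Shh_260 (chr5:29166827-29168466), about 23 kb beyond SBE4. It held 0.492 reads per 1000 in ESC replicate 1 and 33.2 in ESC replicate 2, against 120.4 and 103.5 in the NPC replicates. The next, between Shh_458 in the Lmbr1 window and Shh_491 in the window of Mnx1, a motor neuron homeobox gene, held 0.438 and 24.8 in ESC and 103.7 and 89.8 in NPC. The third joined Shh_178 (chr5:28884804-28887360) in the SBE6 window to Shh_295 (chr5:29253038-29259186) in the SBE2 window, 370 kb apart, and held 0.352 and 10.1 in ESC against 70.0 and 63.5 in NPC. In each of these, both NPC replicates were above both ESC replicates, and the ESC replicates were far apart from each other.

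The same order held for Shh_13 with Shh_81 in the flank on the Shh side (0.183 and 5.79 in ESC, 31.0 and 33.4 in NPC), for Shh_330 with Shh_529 (0.0405 and 2.85, against 25.1 and 20.9) and for Shh_20 with Shh_407, which lie 1194 kb apart (0.0104 and 1.77, against 13.7 and 11.6). It also held for Shh_128 with Shh_494 (0.0456 and 3.54, against 14.4 and 7.98) and for Shh_231 with Shh_353 inside the domain (0.0123 and 0.789, against 7.12 and 9.38). The groups overlapped for Shh_460 with Shh_491 (0.197 and 17.4 in ESC, 13.4 and 18.0 in NPC) and for Shh_143 with Shh_321 (0.0736 and 10.5 in ESC, 7.82 and 7.58 in NPC). The latter leaves the Shh window, as does Shh_154 with Shh_459 in the Lmbr1 window, which was higher in both NPC replicates (0.133 and 3.10 in ESC, 4.49 and 3.65 in NPC). Of all 21 high pairs, 16 had both NPC replicates above both ESC replicates, 5 overlapped and 0 were lower. Since these pairs were picked for a high share of some library, that count is a description. Among the other 27187 fragment pairs more than 50 kb apart, 11.0% were higher in this sense and 17.5% were lower.

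**Figure D1:**
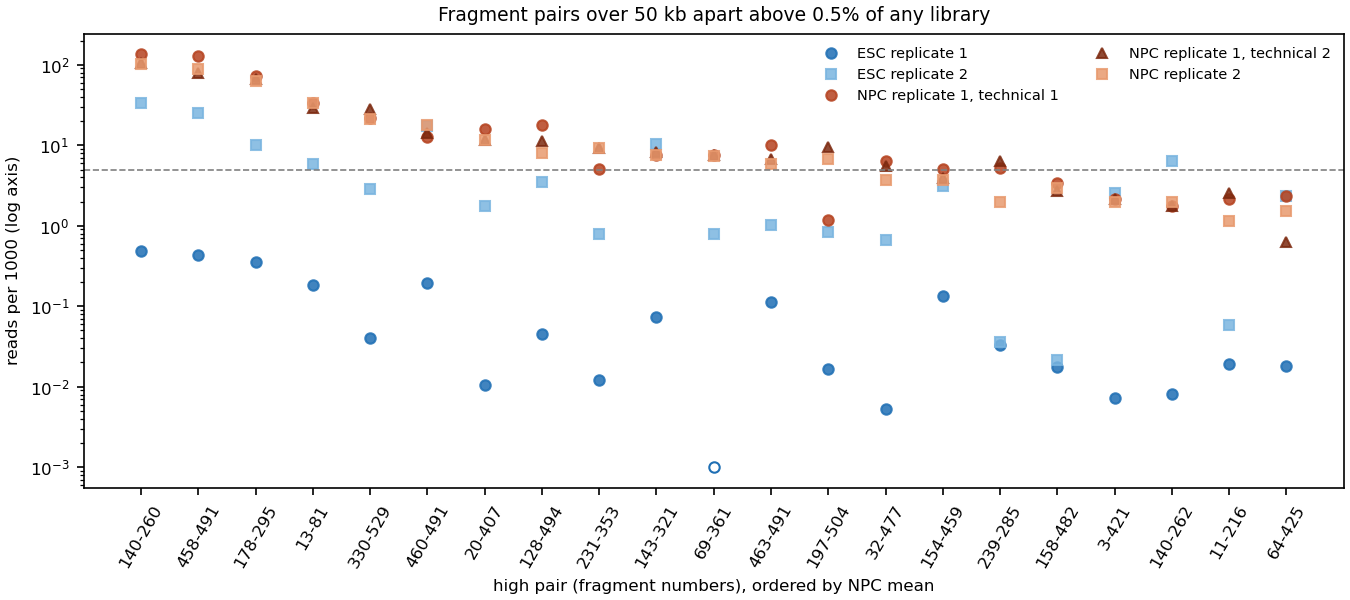
Signal of the 21 high pairs in each ESC and NPC library, in reads per 1000 on a log axis; an open circle marks a value listed at 0 and the dashed line marks 5 per 1000, which is 0.5% of a library. With its technical libraries averaged, each NPC replicate lies above 1 read per 1000 for all 21 pairs, ESC replicate 2 does so for 14 and ESC replicate 1 for 0. Technical library 2 of NPC replicate 1 alone is below 1 for Shh_64 with Shh_425, at 0.634.

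The high pairs stood far above the fragment pairs around them that were not high pairs themselves. They used 39 fragments, of which Shh_491 occurred in 3 pairs and Shh_140 in 2. The fragment pairs around them, formed by the 3 nearest fragments on either side and leaving out other high pairs, were far weaker. Some high pairs did lie close together: Shh_491 paired with Shh_458, Shh_460 and Shh_463, all in the Lmbr1 window, and Shh_140 with Shh_260 and Shh_262. Around Shh_140 with Shh_260, the 23 neighbouring pairs averaged 0.0138 and 0.00988 reads per 1000 in ESC and 0.00617 and 0.00658 in NPC. Other high pairs aside, the surroundings of the strongest NPC pair were thus lower in NPC. The nearby high pair Shh_140 with Shh_262 overlapped, at 0.00820 and 6.30 in ESC and 1.76 and 1.99 in NPC. Among the 10 strongest high pairs, the neighbourhood without other high pairs was higher in both NPC replicates for 3, lower for 4 and overlapping for 3. By place, 8 high pairs tied the domain to the flank on the Shh side, 5 tied the domain to the flank on the Lmbr1 side, 3 lay inside the domain and 5 lay in or between the flanks. Every total below is given with all pairs and again after removing the 21 high pairs and rescaling each library, since these pairs move every other share.

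NPC held less of their signal at short range than ESC, and more of it beyond 200 kb. Pairs up to 50 kb apart made up 62.7% and 59.4% of the signal in the ESC replicates and 25.7% and 31.0% in the NPC replicates. Without the high pairs they made up 62.9% and 68.1% in ESC and 47.2% and 52.1% in NPC. The groups did not overlap in either form, and removing the high pairs narrowed the gap. A comparison of 2 replicates with 2 by an exact two-sided permutation test cannot give a p below 0.333, so these shares are read by whether the groups overlap. Depth was 43.2 and 0.978 M reads in the libraries of NPC replicate 1, and both lay on the same side of the ESC libraries.

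The short-range difference lay mostly under 20 kb. These held 56.1% and 55.0% in ESC and 20.4% and 24.5% in NPC, or 56.2% and 63.1% against 37.3% and 41.1% without high pairs. The 227 pairs of directly adjoining fragments accounted for much of it: without high pairs they held 38.9% and 46.7% in ESC and 23.1% and 25.2% in NPC. The remaining pairs under 20 kb were lower in NPC as well, at 17.3% and 16.4% against 14.2% and 15.9%, a much smaller gap. It ended when 1 more pair near Rnf32, given below, was removed, at 17.3% and 16.5% against 14.8% and 16.6%. Adjoining fragments also join when the DNA between them was never cut, so this class measures more than contact, and its part in the difference was not tested.

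Beyond 200 kb the NPC shares were higher with and without the high pairs. Between 400 and 800 kb, ESC held 8.29% and 12.3% and NPC 24.5% and 21.7%, or 8.24% and 8.00% against 16.1% and 13.8% without high pairs. Above 800 kb, ESC held 5.88% and 7.32% and NPC 13.4% and 11.6%, or 5.87% and 6.61% against 14.0% and 11.6%. Between 200 and 400 kb the NPC replicates held 16.7% each, against 9.0% and 8.08% in ESC, and the gap shrank without high pairs to 10.8% and 10.2% against 8.97% and 7.35%. The 100 to 200 kb class was higher in NPC only with the high pairs, at 14.6% and 13.1% against 7.60% and 7.25%. Without them it overlapped, at 6.72% and 6.66% against 7.57% and 5.46%.

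The class from 20 to 50 kb rested on 1 fragment pair. Shh_379 and Shh_403, 45.2 kb apart and both near Rnf32, held 0.0716 and 3.04 reads per 1000 in ESC and 22.0 and 24.2 in NPC, past the 0.5% limit but nearer than 50 kb. Without high pairs the class held 6.63% and 5.00% in ESC and 9.85% and 11.0% in NPC. With this pair removed too, it held 6.63% and 4.67% in ESC and 6.08% and 7.20% in NPC, and the groups overlapped.

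**Figure D2:**
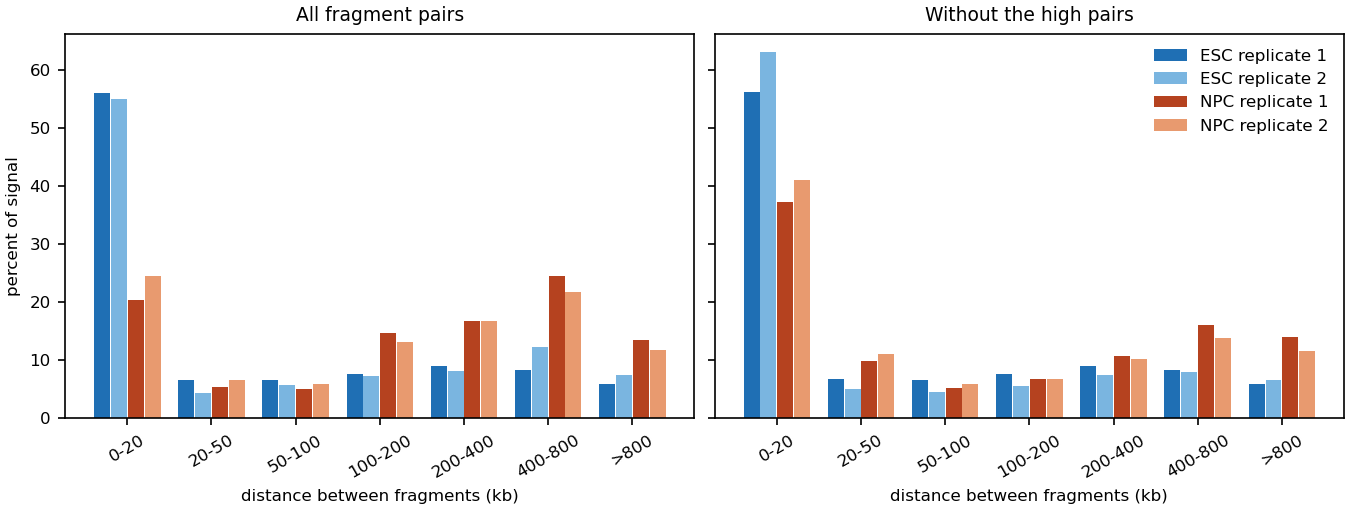
Percent of each replicate's signal in 7 classes of distance between fragments, with all pairs and without the 21 high pairs. Under 20 kb the ESC bars stand at 55.0 to 63.1% and the NPC bars at 20.4 to 41.1%, and above 400 kb the NPC bars are the taller ones.

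The steepness of the fall with distance gave the same order only with the high pairs. The slope of log10 mean signal on log10 distance between 20 and 1000 kb was -0.68 and -0.48 in ESC and -0.24 and -0.35 in NPC. Without high pairs it was -0.68 and -0.57 in ESC and -0.47 and -0.57 in NPC, where the groups overlapped.

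More NPC signal crossed the edges of the Shh domain. With the edges set at Shh and Lmbr1, pairs that joined the domain to either flank held 11.7% and 20.2% in ESC and 44.1% and 39.4% in NPC. Pairs between the flanks were not counted in this share. Without high pairs they held 11.6% and 13.0% in ESC and 26.1% and 22.4% in NPC. In both forms, the lower NPC replicate was above the higher ESC replicate. The domain itself held 51.7% and 45.6% of the signal in ESC and 32.5% and 35.3% in NPC, or 51.8% and 51.0% against 44.4% and 46.8% without high pairs.

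As shares of signal, not adjusted for distance, those inside both flanks were lower in NPC and those of all crossings were higher. Without high pairs, pairs within the flank on the Shh side, which holds Insig1, En2, Cnpy1 and Rbm33, held 15.1% and 15.9% in ESC and 10.9% and 12.7% in NPC. Pairs within the flank on the Lmbr1 side, which holds Nom1, Mnx1 and Ube3c, held 19.1% and 17.7% against 13.4% and 14.1%. Contacts of the domain with the Shh-side flank held 5.79% and 6.92% in ESC and 13.3% and 11.3% in NPC. Contacts of the domain with the Lmbr1-side flank held 5.83% and 6.08% against 12.8% and 11.1%, and those between the flanks 2.37% and 2.29% against 5.18% and 4.08%. Blocks differ in how far apart their pairs lie, so part of each share repeats the distance classes. When every pair was divided by the mean of its distance, the domain crossing share was 40.3% and 50.5% in ESC and 51.9% and 51.9% in NPC. The mean difference was then 6.48 percentage points, against 25.8 points as measured, and ESC replicate 2 was close to NPC. Over pairs beyond 50 kb without high pairs, the mean log2 less the mean log2 at the same distance kept only some block directions. Flank with flank was lower in NPC, at 0.007 and -0.022 in ESC against -0.111 and -0.095. The domain with the Shh-side flank overlapped, at -0.331 and -0.149 against -0.180 and -0.168, as did the Lmbr1-side flank. The domain with the Lmbr1-side flank stayed higher and the Shh-side flank lower. All pairs gave the same sides.

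**Figure D3:**
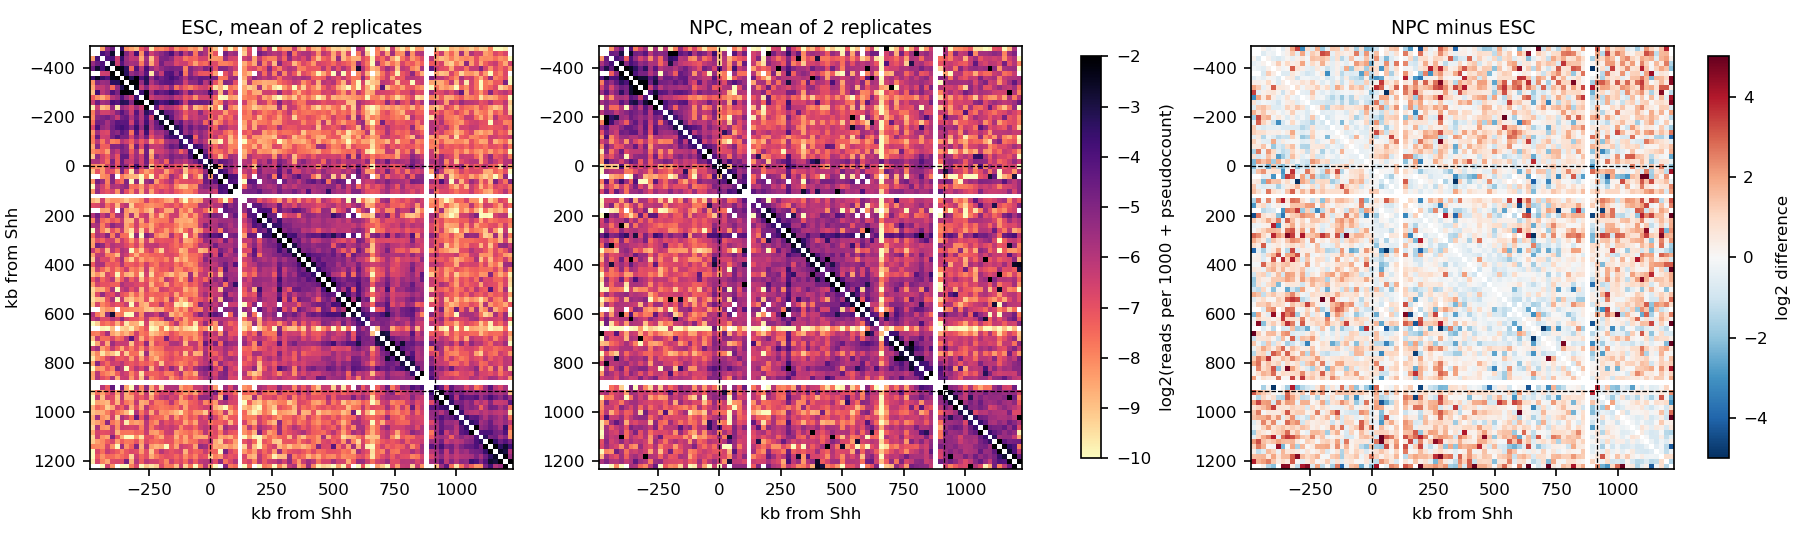
Contact maps in 20-kb bins without the high pairs, as log2 of mean reads per 1000 plus a pseudocount, for ESC, for NPC and as the NPC minus ESC difference, with dashed lines at Shh and Lmbr1. Blue in the difference map follows the diagonal inside each block and red fills the areas outside the domain corners, which matches crossing shares of 11.6% and 13.0% in ESC and 26.1% and 22.4% in NPC.

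The dip of contact across the edges was shallower in NPC. For every pair, the log2 of its signal plus a pseudocount was taken, less the mean of these log2 values at its distance. Pairs more than 20 kb apart that spanned Shh within 200 kb on either side were then averaged. This gave -1.34 and -0.94 in ESC and -0.72 and -0.78 in NPC. Without high pairs the values were -1.34 and -0.96 in ESC and -0.85 and -0.88 in NPC, so the NPC replicates lay close to ESC replicate 2 and well above ESC replicate 1. Across Lmbr1 the values were -0.77 and -0.58 in ESC and -0.26 and -0.34 in NPC, or -0.77 and -0.61 against -0.31 and -0.40 without high pairs.

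A dip near each edge remained in NPC. Along the profile, the lowest point near Shh was 10 kb outside it in both ESC replicates, at -1.26 and -0.92, and 30 and 50 kb outside it in the NPC replicates, at -0.74 and -0.79. On the Lmbr1 side, the lowest point lay 850 kb from Shh in ESC replicate 1 and both NPC replicates. That is inside the edge used here, since Lmbr1 lies 915 kb from Shh. In ESC replicate 2 it lay at 910 kb. With a reach of 100 kb and without high pairs, the groups overlapped at Shh (-1.62 and -1.22 in ESC, -1.04 and -1.28 in NPC) and at Lmbr1 (-1.03 and -0.70 in ESC, -0.74 and -0.42 in NPC). Of the 68 positions along the profile, NPC was higher at 23, lower at 29 and overlapping at 16. The higher positions lay around the 2 edges and the lower ones inside the domain and the Shh-side flank. Contact inside the domain, on the same log2 scale over pairs more than 50 kb apart, was 0.54 and 0.29 in ESC and 0.21 and 0.25 in NPC. Without high pairs it was 0.54 and 0.31 against 0.26 and 0.29. For the Shh edge and the domain interior, the NPC values were nearer to ESC replicate 2 than the ESC replicates were to each other.

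**Figure D4:**
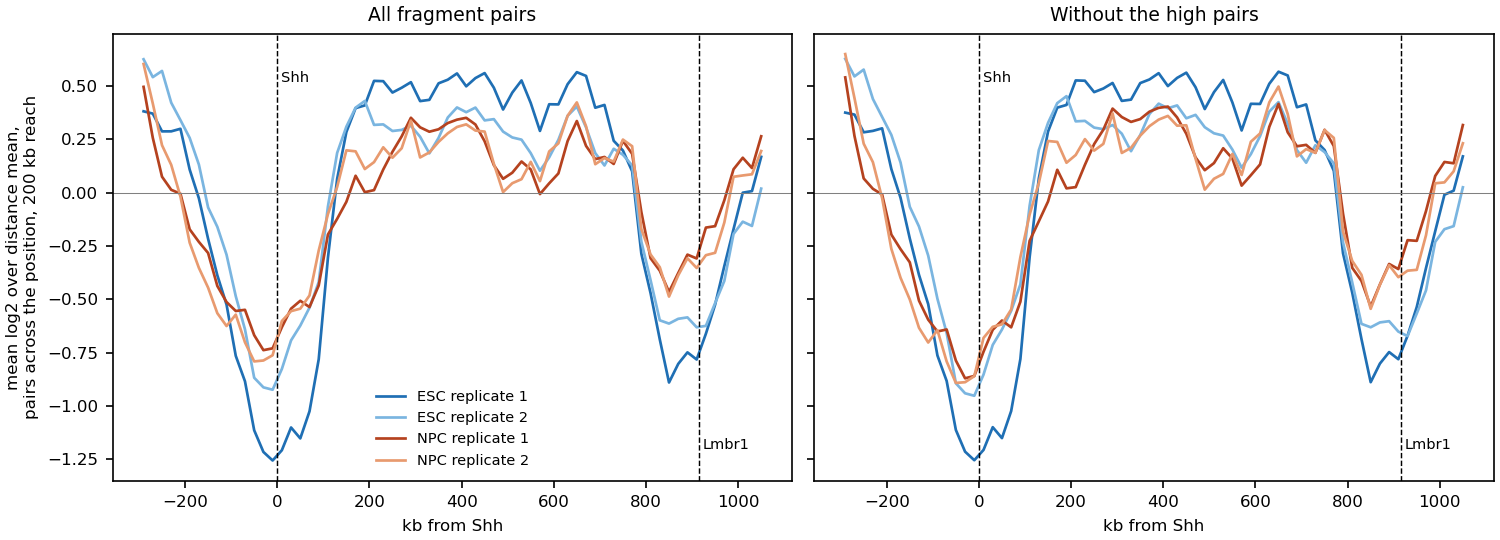
Mean log2 signal, less the mean log2 at the same distance, for pairs over 20 kb apart that span each position within 200 kb. Values are shown by replicate against kb from Shh, with all pairs and without high pairs. With all pairs the curves dip near Shh to -1.26 and -0.92 in ESC and to -0.74 and -0.79 in NPC. They dip again on the Lmbr1 side, lowest at 850 or 910 kb from Shh.

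Windows reaching 20 kb to either side of 14 genes and enhancers were then compared, each pair of windows by its mean reads per 1000 per fragment pair. The windows sit on approximate mm9 positions. Tests were made with limma on log2 values with a pseudocount of 7.74e-04, over 3439 pairs of 20-kb bins and 91 window pairs together. After Benjamini-Hochberg adjustment, limma called 0 of the 91 window pairs in either direction, with 3 at an unadjusted p under 0.05, and without high pairs again 0, with 0 at an unadjusted p under 0.05. Without ESC replicate 1 it called 1 (SBE6 with SBE2), and without ESC replicate 2 it called 3 (SBE6 with SBE2, Shh with Lmbr1, and Lmbr1 with Mnx1), all higher in NPC. By overlap alone, both NPC replicates were above both ESC replicates in 17 of 91 window pairs (18.7%) and below them in 26 (28.6%). For bin pairs the shares were 14.2% and 28.6%. Without high pairs the balance turned, to 47 above (51.6%) and 6 below (6.59%), against 30.3% and 12.6% of bin pairs. The median difference over bin pairs was -0.26 (log2) with all pairs and 0.36 without high pairs, and window pairs are best read against that shift.

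Shh and its enhancers showed no change in contact that passed the test. Shh with SBE6, the nearest of them, held 0.0186 and 0.0144 reads per 1000 per fragment pair in ESC and 0.0192 and 0.0166 in NPC. Its limma difference on the log2 scale was 0.12, with a 95% interval from -1.54 to 1.78. Shh with SBE4 held 0.0219 and 0.0164 in ESC and 0.0139 and 0.00959 in NPC, a difference of -0.67 (-2.30 to 0.95). Shh with SBE2 held 0.0142 and 0.0105 against 0.00684 and 0.0103, a difference of -0.50 (-2.40 to 1.39). The intervals are wide enough to hold a change of over 2-fold in either direction for the pair with SBE6, so these data do not show equal contact either.

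The order of these pairs depended on the high pairs, although none of them lay between Shh and these windows. Shh with the limb enhancer ZRS, 54 fragment pairs, held 0.0203 and 0.0112 in ESC and 0.0112 and 0.0158 in NPC, and 0.0203 and 0.0128 against 0.0205 and 0.0266 without high pairs. Shh with SBE6 held 0.0187 and 0.0165 in ESC and 0.0352 and 0.0279 in NPC without high pairs, a difference of 0.81 (-0.73 to 2.35), or 0.45 above the median bin pair. Of its 45 fragment pairs with all pairs, 8.89% were higher in NPC and 20.0% lower. Among long fragment pairs other than high pairs, those shares were 11.0% and 17.5%. Without high pairs it was the one of the 4 whose level over its distance mean was higher in NPC, at 1.40 and 1.06 against 0.572 and 0.765. With all pairs, 0 of the 4 were higher in that relative level, 3 were lower and 1 overlapped. For SBE4 and SBE2 that relative level was lower in NPC in both forms: without high pairs, Shh with SBE4 stood at 1.61 and 1.51 in ESC and 1.40 and 0.973 in NPC. In counts, 0 of the 4 pairs were higher, 2 lower and 2 overlapped with all pairs, and 2 were higher, 0 lower and 2 overlapped without high pairs.

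Among the enhancers, SBE6 with SBE2 stood out. Its 70 fragment pairs averaged 0.0271 and 0.201 reads per 1000 in ESC and 1.05 and 0.953 in NPC, a log2 difference of 3.74 (SE 0.88, adjusted p = 0.152 by limma). Most of this was the high pair Shh_178 with Shh_295. Without it, the level was 0.0224 and 0.0652 in ESC and 0.0879 and 0.0777 in NPC, a difference of 1.09 (SE 0.61, adjusted p = 0.763). Both NPC replicates remained above both ESC replicates, but over the distance mean the groups then overlapped, at 1.65 and 5.24 in ESC against 4.78 and 4.69 in NPC. Of this remaining NPC level, 71.3% came from 1 fragment pair, Shh_178 with Shh_297, just under the 0.5% limit. With all pairs that fragment pair overlapped between the groups, with 0.0525 and 2.73 reads per 1000 in ESC and 2.37 and 2.22 in NPC.

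SBE6 with SBE4 was higher over its distance mean in both forms. Its level was 0.0265 and 0.0197 in ESC and 0.0261 and 0.0289 in NPC, and over the distance mean it was 1.59 and 1.5 against 1.59 and 1.72. With all pairs, ESC replicate 1 and NPC replicate 1 were thus nearly equal. Without high pairs the relative level was 1.59 and 1.71 in ESC and 2.44 and 2.56 in NPC. In NPC 47.7% of the level with all pairs came from Shh_181 with Shh_251. Of its 35 fragment pairs, 14.3% were higher in NPC and 34.3% lower. Among long fragment pairs other than high pairs, those shares were 11.0% and 17.5%. The neighbouring enhancers SBE4 and SBE2 had lower levels in NPC, with 0.0451 and 0.0231 in ESC and 0.0129 and 0.0168 in NPC, a difference of -1.10 (SE 0.69, adjusted p = 0.814 by limma). That pair overlapped without high pairs (0.0452 and 0.0265, against 0.0235 and 0.0282), though its level over the distance mean stayed lower, at 1.45 and 1.25 against 0.977 and 1.09. SBE4 with the ZRS differed by -0.67 and SBE2 with the ZRS by -0.63 with all pairs, and by -0.02 and 0.05 without high pairs. SBE6 with the ZRS differed by 0.19 and by 0.87.

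Seen from single windows, the enhancers sent less of their long-range signal into the domain in NPC once the high pairs were removed. The whole region moved the same way. Without high pairs, pairs inside the domain held 43.0% and 37.1% of all signal over 50 kb in ESC and 30.3% and 33.2% in NPC. The window shares were not adjusted for distance. Without high pairs, the ZRS sent 63.4% and 66.3% of its signal beyond 50 kb into the domain in ESC and 54.8% and 52.9% in NPC, while the Shh-side flank received 15.4% and 15.2% in ESC and 21.9% and 22.3% in NPC. The ZRS window touches no high pair, so its shares were the same with all pairs. SBE2 sent 78.4% and 73.8% into the domain in ESC and 58.4% and 63.5% in NPC, and its share to the Lmbr1-side flank was 9.60% and 10.5% against 26.5% and 21.0%. With all pairs the SBE2 domain share turned round, to 78.7% and 80.4% against 88.7% and 88.9%, since 2 high pairs of its window lie within the domain.

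SBE6 and SBE4 followed with smaller gaps. SBE6 sent 73.4% and 74.9% into the domain in ESC and 66.8% and 69.9% in NPC without high pairs, and 73.8% and 83.5% against 92.6% and 92.8% with them. SBE4, whose window also has no high pair, sent 74.4% and 73.3% in ESC and 70.2% and 68.2% in NPC. The Shh window differed: its domain share overlapped (63.7% and 60.8% in ESC, 56.3% and 62.2% in NPC), its share to the Shh-side flank was lower in NPC (21.4% and 19.4%, against 19.1% and 16.1%) and its share to the Lmbr1-side flank was higher (14.9% and 19.8%, against 24.6% and 21.7%).

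Among the 55 window pairs that involve Shh or an enhancer, 1 was lower in NPC both with and without high pairs: Shh with En2. En2, a homeobox gene of the midbrain and hindbrain, made 0.0223 and 0.0265 reads per 1000 per fragment pair with Shh in ESC and 0.00405 and 0.00549 in NPC. The log2 difference was -2.19 (SE 0.85, adjusted p = 0.490 by limma), or -1.93 against the median bin pair. Without high pairs the values were 0.0223 and 0.0304 against 0.00743 and 0.00922, a difference of -1.57 (SE 0.77, adjusted p = 0.709 by limma). Over the distance mean the pair stood at 1.38 and 2.15 in ESC and 0.345 and 0.437 in NPC. Both NPC replicates were well below both ESC replicates, and the direction was the same in 37 of 37 alternatives, but 0 of those took it past the threshold. Of its 30 fragment pairs, 8 (26.7%) were lower in both NPC replicates, 22 overlapped and 0 were higher, where 17.5% of all long fragment pairs other than high pairs were lower and 11.0% higher. In the NPC libraries it rested on an implied 4769, 130 and 308 reads, against 14679 and 16396 in ESC.

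En2 was also lower in NPC in both forms with genes of its own flank, which were looked at after their values were seen. En2 with Cnpy1 held 0.0673 and 0.0585 in ESC and 0.0301 and 0.0367 in NPC, and 0.0675 and 0.0671 against 0.0556 and 0.0616 without high pairs. En2 with Rbm33 held 0.0133 and 0.0129 against 0.00614 and 0.00713, and 0.0133 and 0.0148 against 0.0111 and 0.0120. Their differences of -0.90 and -0.91 did not pass the test in limma (adjusted p = 0.829 and 0.921).

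Of the 16 pairs of an enhancer with a Shh-side gene, 6 were higher in NPC, 1 was lower and 9 overlapped with all pairs, and 0 passed the test. Over all 91 window pairs, 18.7% were higher and 28.6% lower. Without high pairs 13 of the 16 were higher, 0 lower and 3 overlapped, against 51.6% higher and 6.59% lower over all 91. Rbm33, the gene next to Shh on that side, made 0.00358 and 0.00131 with SBE6 in ESC and 0.00841 and 0.00753 in NPC, a difference of 1.54 (SE 1.16, adjusted p = 0.862 by limma), and 2.24 without high pairs (SE 1.10, adjusted p = 0.702). Its level over the distance mean was higher in NPC with all pairs (0.176 and 0.0892 in ESC, 0.331 and 0.425 in NPC) and without high pairs (0.177 and 0.0906, against 0.788 and 0.626). In NPC 57.9% of its level came from Shh_117 with Shh_181, which held 9.1e-05 and 0 reads per 1000 in ESC and 0.321 and 0.0946 in NPC. Of its 45 fragment pairs, 5 were higher in NPC, 5 lower and 35 overlapped. Rbm33 with SBE2 held 0.00258 and 0.00302 in ESC and 0.00481 and 0.00466 in NPC. En2 with the ZRS held 0.00599 and 0.00206 against 0.0101 and 0.00614. The level of En2 was thus lower in NPC with Shh and not lower with SBE4, SBE6 or the ZRS, the first of these at 0.00475 and 0.00231 in ESC and 0.00567 and 0.00485 in NPC.

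Of the 55 window pairs that involve Shh or an enhancer, 11 (20.0%) were higher and 1 (1.82%) lower in NPC in both forms, against 16 (17.6%) and 6 (6.59%) of all 91. The share that was higher is thus near that of all window pairs. The 20 with Shh-side genes had a median difference of 0.19 with all pairs and 0.85 without high pairs, against -0.18 and 0.44 over all 91. The 15 with the Lmbr1-side genes had medians of -0.21 and 0.43, and the 10 with Rnf32 or Lmbr1 of -0.06 and 0.59. The 36 gene pairs that involve neither Shh nor an enhancer had medians of -0.30 and 0.32. Shh with Lmbr1, the ends of the domain, held 0.0169 and 0.116 in ESC and 0.157 and 0.129 in NPC, where ESC replicate 2 was near the NPC values. Without its high pair it held 0.0134 and 0.0290 against 0.0482 and 0.0370, and 66.5% of that NPC level came from 1 fragment pair. Of its 34 fragment pairs with all pairs, 11.8% were higher in NPC and 23.5% lower. Among long fragment pairs other than high pairs, those shares were 11.0% and 17.5%. SBE6 with Ube3c in the far flank held 0.00756 and 0.00672 in ESC and 0.00897 and 0.0101 in NPC.

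**Figure D5:**
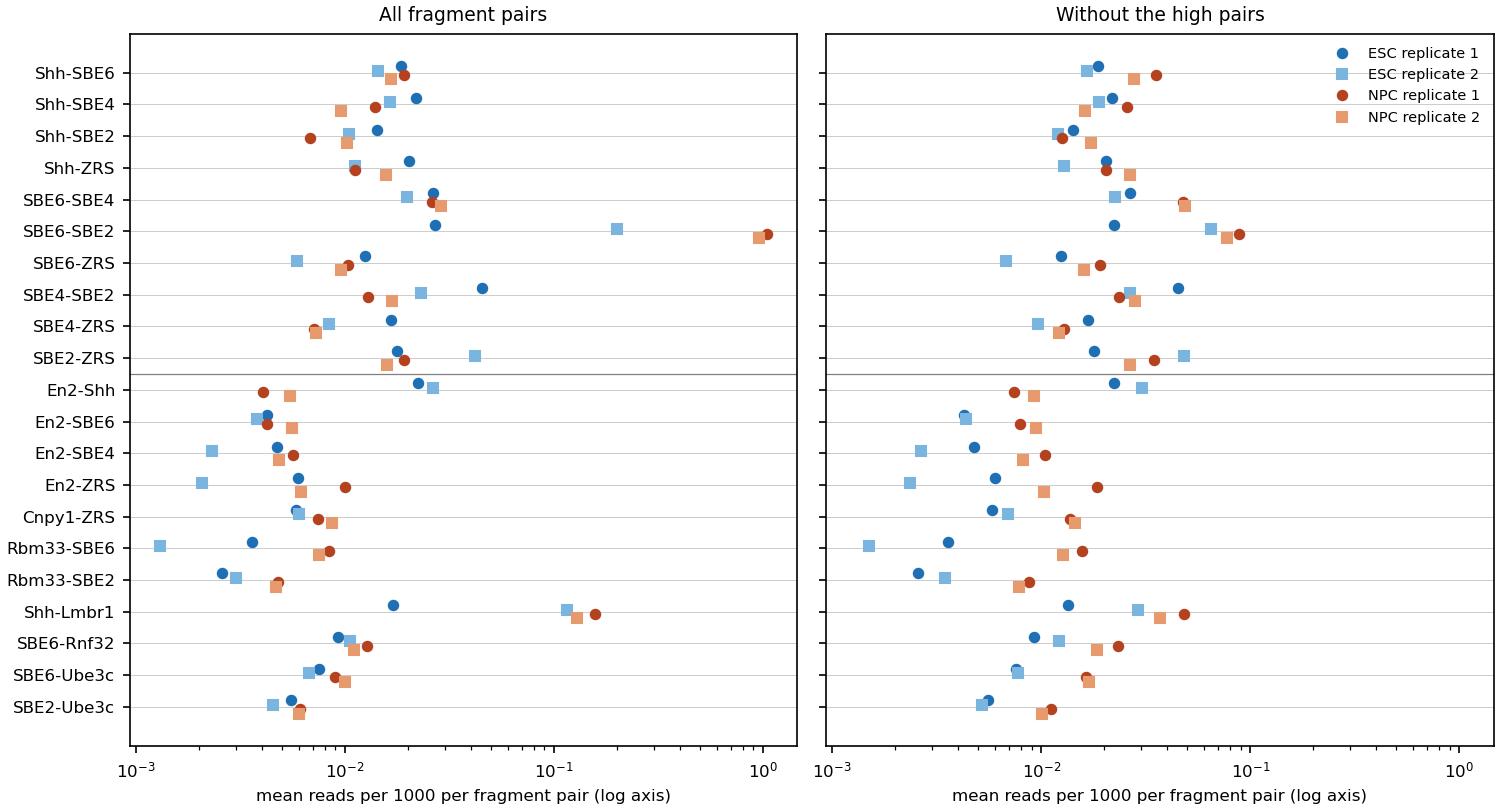
Mean reads per 1000 per fragment pair, on a log axis, for the 21 window pairs named in the text, by replicate. SBE6 with SBE2 stands at 0.0271 and 0.201 in ESC and 1.05 and 0.953 in NPC, and En2 with Shh stands at 0.0223 and 0.0265 in ESC and 0.00405 and 0.00549 in NPC.

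Over the 3439 bin pairs, limma called 4 higher in NPC (0.116%) and 0 lower (0%) after adjustment, with 281 at an unadjusted p under 0.05 in either direction. The count moved with the libraries: leaving out ESC replicate 1 gave 51 higher and 13 lower, leaving out ESC replicate 2 gave 53 and 15, NPC replicate 1 gave 7 and 4, and NPC replicate 2 gave 17 and 9. Leaving out either replicate of the ESC group that received activators at both SBE6 and SBE2 gave 0. Without high pairs 10 bin pairs passed as higher (0.291%) and 1 as lower (0.0291%), and 2 bin pairs were on both lists. In each bin pair that rose, 1 fragment pair supplied most of the NPC signal, between 87.2% and 99.8% with all pairs. In the one led by Shh_239 with Shh_285, the signal left without that pair was also higher in NPC, at 0.0522 and 0.0511 against 0.0129 and 0.0114 in ESC. Without their leading pair, 1 of the other bin pairs was lower and 2 overlapped. In the bin pair that joins a bin 200 kb outside Shh to one 540 kb inside the domain, Shh_81 with Shh_324 held 0.0184 and 0 reads per 1000 in ESC and 1.33 and 1.11 in NPC. In the bin pair between the Mnx1 window and the last bin of the region, Shh_493 with Shh_555 held 0.0208 and 0 in ESC and 1.55 and 0.547 in NPC. These 2 bin pairs passed in both forms, with log2 differences of 5.15 (SE 0.64, adjusted p = 0.00475 by limma) and 5.58 (SE 0.74, adjusted p = 0.00632 by limma).

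The 1 bin pair that fell was found without high pairs and again involved En2. It joins a bin of the En2 window to a bin 60 kb from Shh inside the domain, and its values were 0.0288 and 0.0211 in ESC and 1.15e-05 and 0 in NPC, a log2 difference of -5.03 (SE 0.85, adjusted p = 0.0451 by limma). It holds 2 fragment pairs. Shh_44 (chr5:28476584-28484052) with Shh_162 (chr5:28837190-28843289) held 0.0449 and 0.0176 reads per 1000 in ESC and 2.30e-05 and 0 in NPC, and the other held 0.0128 and 0.0247 in ESC and was listed at 0 in both NPC replicates. Among the 11 bin pairs that passed without high pairs, the signal left after removing the highest fragment pair was higher in both NPC replicates in 2, lower in 3 and overlapping in 6.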

How the data were processed

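Per the labels, the authors deposited 5C signal as reads per 1000 reads for each HindIII fragment pair (mm9). The aligner is not given in the sources used here. Each library was rescaled to 1000 over the 341 shared fragments and technical replicates were averaged. limma 3.58.1 (R 4.3.3; lmFit, eBayes with trend) was fitted to log2 values of all 8 biological replicates of 5 groups, with 3 residual degrees of freedom, for bin and window pairs above 0 in at least 2 replicates, and p-values were adjusted together by Benjamini-Hochberg at 0.05. Python 3.11.15 with pandas 2.3.3, numpy 2.4.6 and scipy 1.17.1 made the other tables. The limma step was tested on simulated data. Members, windows and lists were chosen with earlier results of these data known. Window pairs named are those among Shh and its enhancers, and those of these 5 on the same side of ESC in both forms; bin pairs are the largest that passed; fragment pairs are the 10 highest in NPC. Replicate numbers were not used as a block, since the labels do not say that a number pairs samples. Nothing in the labels says the replicates came from separate cultures, so p-values measure only the spread between these samples. Alternatives covered the high-pair limit, duplicate, scaling, bins, windows, pseudocount, filters, model and left-out replicates.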

Additional observations from a re-analysis of the deposited data

How the results depend on the processing

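The choice of high pairs, the scaling and the model set how many bin pairs passed in limma. Against 4 higher, there were 10 without high pairs of any library, 16 without those of ESC or NPC libraries alone, 9 and 15 with limits of 0.2% and 1%, and 12 when pairs from 20 kb on could also be high. There was 1 with median-ratio scaling, 1 with means of logs, with or without high pairs, and 0 when scaled to pairs beyond 50 kb, when scaled by distance, without each pair's highest fragment pair, without the variance trend, or in a fit of ESC and NPC only. There were 8 with 10-kb bins and 27 with 40-kb bins, with a pseudocount 10 times larger, or where all 8 replicates were above 0. Leaving out 1 replicate gave 0 to 53. Against 0 lower, there was 1 under each high-pair limit and with the larger pseudocount, 2 with 10-kb bins or means of logs, 6 with 40-kb bins, 4 above 0 in all 8, and 0 to 15 without 1 replicate. Against 0 window pairs higher, there was 1 (SBE6 with SBE2) with 40-kb bins, the larger pseudocount or all 8 above 0, and 0 to 3 without 1 replicate. The replicate number as a block gave 34 bin pairs higher, 14 lower and 1 window pair higher, but nothing in the labels pairs the numbers: deviations of same-numbered replicates correlated at -0.03 between ESC and NPC, 0.21 between ESC and the group with activators at both enhancers, and -0.01 between NPC and that group. The bin pairs of Shh_81 with Shh_324 and Shh_493 with Shh_555 turned to -0.79 and -1.49 without those fragment pairs, and that of Shh_239 with Shh_285 to -0.092 with means of logs and no high pairs.

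The NPC minus ESC domain crossing share was 25.8 points. It was 11.9, 12.8, 11.1, 13.0 and 12.9 under the 5 high-pair rules in the order above, 16.7 and 16.3 with the edges moved outward and inward, 17.7 over pairs beyond 50 kb, 6.48 after division by distance, and 21.5 to 30.0 without 1 replicate. The distance slope differed by 0.284, then by 0.103, 0.114, 0.0893, 0.135 and 0.162 under those rules, 0.589 from 50 kb, 0.162 with medians, and 0.186 to 0.381 without 1 replicate. The share up to 50 kb differed by -32.7 points, then by -15.9, -16.4, -14.7, -19.0 and -17.9, and by -35.3 to -30.1 without 1 replicate. The difference in signal across the Shh edge was 0.39, or 0.68 as the log2 of the mean without high pairs, and 0.19 to 0.59 without 1 replicate. That in signal across the Lmbr1 edge was 0.37, or 0.61, and 0.28 to 0.47. Every one of these kept its direction, and the cause of the moves was not tested. Settings on shares and edges, and the rules from 20 kb on and with means of logs, were chosen after seeing the data. The deposited values are scaled, and reads were only implied from their smallest step. A count model was not run on these implied reads. Depth limits weak window pairs: 2 of the NPC libraries held 0.978 and 1.87 M reads.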
